A study of Mus musculus with 9 samples.

Results

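The 37 genes of the mouse mitochondrial genome were followed in ribosome-associated RNA of neurons of the medial prefrontal cortex (mPFC). They were chosen as all genes whose symbol starts with mt-, which gave 13 protein genes, 2 ribosomal RNA (rRNA) genes and 22 transfer RNA (tRNA) genes among 47593 gene symbols. The 9 libraries came from adult mice of the C57BL/6 strain, 3 in each of 3 groups. The sleep group slept and overexpressed green fluorescent protein (GFP) by itself in the mPFC. The enforced wake group overexpressed GFP likewise and was kept awake. The group of enforced wake with Fxr1 was kept awake too but overexpressed GFP-Fxr1, a fusion to the RNA-binding protein Fxr1, a relative of the fragile X protein FMRP, so every group carries an overexpressed GFP protein. The labels do not name the promoter of either construct, the line or Cre driver that tags the ribosomes, or whether replicates are separate or pooled animals. The p-values therefore measure how far these samples spread, and that spread may be technical.

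The mitochondrial genome is a small circular molecule present in many copies per cell. Its strands are transcribed as long precursors that are cut into single RNAs, largely at the tRNAs that lie between the other genes. The proteins are all subunits of the respiratory chain or of ATP synthase, and they are made by ribosomes inside the mitochondrion, which have their own rRNAs and their own proteins. RiboTag immunoprecipitation pulls down cytosolic ribosomes by a tagged ribosomal protein, and input RNA was not analysed here. Levels below are therefore those of mitochondrial RNA found in the pull-down, and their ratio to the RNA of the whole tissue is not known. In such samples fewer cells of a type and less RNA per cell cannot be told apart.

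Levels are in FPKM, the number of fragments on a transcript divided by its length and by the depth of the library, as estimated by the authors, and each gene's value is the sum over its transcripts. Every mitochondrial gene has 1 listed transcript. Library depth was estimated at 29.9 to 37.3 M fragments. Differences are given on the log2(FPKM + 1) scale. Fxr1 itself had 31.0 to 34.9 FPKM in the 6 GFP libraries and 67.7 to 91.1 in the 3 Fxr1 libraries. Fxr1 library 1 stood apart on the first principal component, at 64.1, while the other 8 lay between -31.2 and 13.3. Deviations of genes from their mean followed GC content with Spearman correlations across genes of 0.2396, -0.361 and 0.171 in sleep, 0.617, 0.662 and 0.695 in enforced wake and -0.784, -0.372 and -0.253 in enforced wake with Fxr1, and the GC content of the 13 protein genes and 2 rRNA genes is 31.9% to 41.1%. The 7 neuron markers summed to 3420 to 3559 FPKM in enforced wake, below the 3688 to 3798 of the Fxr1 libraries and the 3795 to 3967 of sleep. Most of that sum is Snap25, at 2198 to 2741 FPKM, and Syt1, at 505.5 to 636.4. Of the 7, 4 had a positive difference in enforced wake minus sleep, with a median of 0.08 on the log2(FPKM + 1) scale. Over all libraries the 6 astrocyte markers summed to 257 to 348, the 5 oligodendrocyte markers to 77.1 to 139.7, the 5 microglia markers to 8.38 to 16.4, the 4 endothelial markers to 3.71 to 6.89 and the 4 blood markers to 63.3 to 188 FPKM, and no marker was at 0 in any library. The astrocyte marker Gfap was lower with Fxr1, at 9.27 to 13.1 FPKM against 34.1 to 41.2 in enforced wake and 24.9 to 35.1 in sleep (limma adjusted p = 0.0245 and 0.00383), while summed astrocyte markers overlapped between the groups. The part of depth, base composition and other cells in the results was not tested.

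The 37 genes together took 0.371% to 0.948% of all FPKM and an estimated 0.165% to 0.362% of fragments. On the FPKM scale, which is per length, the rRNA of the large mitochondrial subunit, mt-Rnr2 (chrM:1094-2675, GRCm38), had the highest mean level over the 9 libraries at 579 FPKM. The catalytic subunit of cytochrome c oxidase, mt-Co1 (chrM:5328-6872), came next at 502 FPKM, and mt-Rnr2 was above it in 9 of 9 libraries. Below them came mt-Co3 at 204, mt-Co2 at 108, the small-subunit rRNA mt-Rnr1 at 99.8, mt-Nd1 at 72.4 and mt-Cytb at 61.1 FPKM. The lower levels were those of mt-Nd3 at 39.5, mt-Atp8 at 39.0, mt-Nd4 at 32.7, mt-Nd5 at 20.5, mt-Nd2 at 18.8 and mt-Atp6 at 14.9 FPKM, and mt-Nd4l and mt-Nd6 had 4.49 and 3.77 FPKM. Most neighbours in this order kept their order in 9 of 9 libraries. The exceptions were mt-Co2 above mt-Rnr1 in 7 of 9, mt-Nd3 above mt-Atp8 in 6, mt-Nd5 above mt-Nd2 in 7, mt-Nd2 above mt-Atp6 in 6 and mt-Nd4l above mt-Nd6 in 7. The kit makes stranded libraries from total RNA, and the sources used here do not give whether rRNA was removed, so the rRNA levels hold for these libraries alone.

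**Figure D1:**
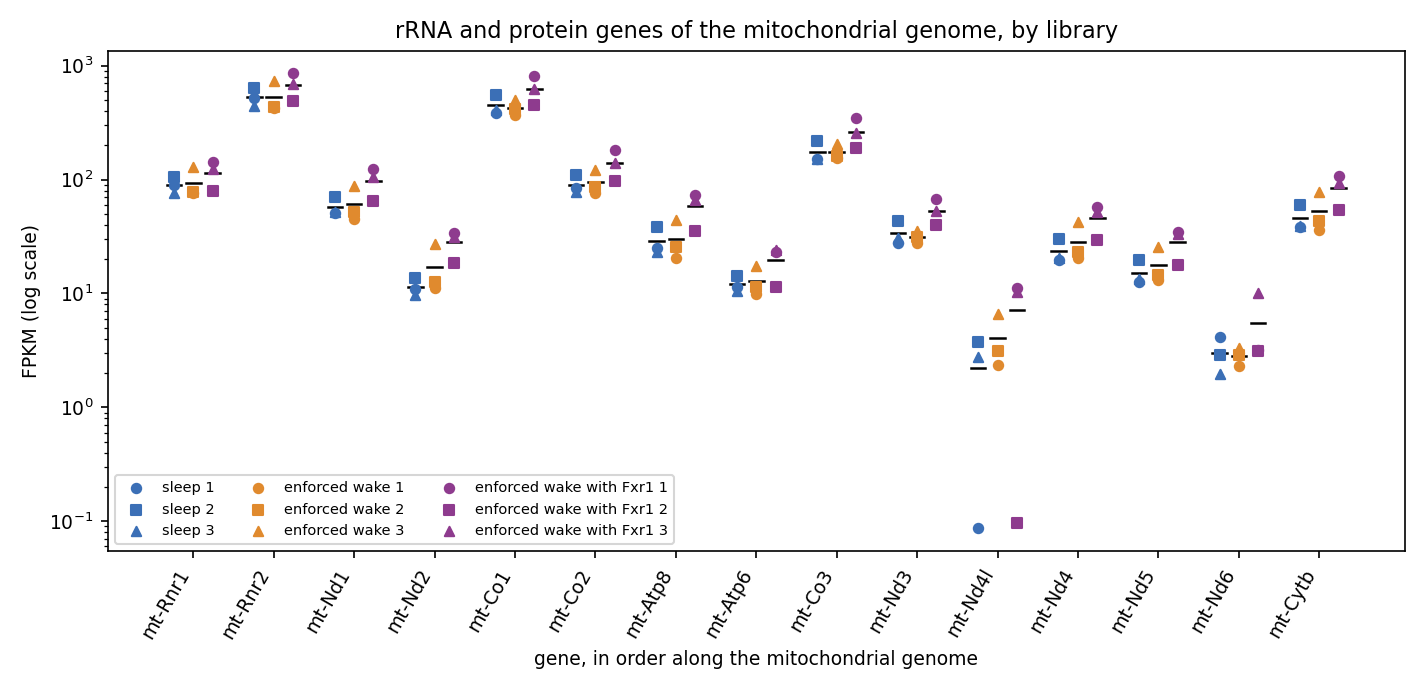
FPKM (log scale) of the 2 rRNA genes and 13 protein genes in order along the mitochondrial genome. Each symbol is 1 library, coloured by group and shaped by replicate number, and each black line is a group mean. Levels run from below 5 FPKM on average for mt-Nd4l and mt-Nd6 to above 500 for mt-Rnr2 and mt-Co1, and Fxr1 libraries 1 and 3 lie at the top for most genes.

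The levels of 9 of the 13 protein genes are uncertain because the nuclear genome holds gene models of nearly the same sequence. Transcripts of 11 annotated nuclear pseudogenes matched a mitochondrial protein gene at 95% identity or more over at least 200 bases, and 5 of them matched it without a difference over the whole pseudogene. Such copies of mitochondrial DNA in nuclear chromosomes are known in many mammals. On chromosome 1 of GRCm38, 7 of the 11 lie on the minus strand between positions 24611535 and 24616197, in the same order as in the mitochondrial genome. The 5 with the highest mean FPKM were Gm29216, Gm28437, Gm28661, Gm10925 and Gm28438. Gm28437 (chr1:24613189-24613971) is identical to the first 783 of the 784 bases of mt-Co3 and had 152, 220.1 and 152 FPKM in sleep, 153, 160.0 and 207 in enforced wake and 344, 188 and 259 in enforced wake with Fxr1. mt-Co3 had 152, 220.0 and 152 FPKM in sleep, 153, 160.2 and 207 in enforced wake and 344, 188 and 259 in enforced wake with Fxr1, so the ratio of the pseudogene to the gene was 0.999 to 1.002 in every library.

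Gm28661 (chr1:24614885-24615565), identical to mt-Co2 over 681 bases, likewise had 0.995 to 1.002 times the FPKM of mt-Co2. Gm28438 (chr1:24612775-24613119), which differs from mt-Nd3 by T3C, counted from the first base of the gene, had 1.05 to 1.07 times its FPKM. Gm10925 (chr1:24613974-24614651), identical to mt-Atp6 over 678 bases, had 44.7, 59.6 and 39.7 FPKM in sleep, 39.0, 44.7 and 70.9 in enforced wake and 102, 51.9 and 87.4 in enforced wake with Fxr1, which was 3.60 to 4.55 times the FPKM of mt-Atp6. Gm29216 (chr1:24615706-24616197) matches the last 483 bases of mt-Co1 at 99.8% identity and had 264.6 to 542 FPKM, 0.668 to 0.722 times mt-Co1. Gm13340 (chr2:22588103-22589647), a copy of all 1545 bases of mt-Co1 at 97.6% identity with 37 mismatches, had 0.0709 to 0.0846 times its FPKM. The files do not say how fragments that match several places were shared out, and from which of the places they came cannot be read from FPKM.

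The same 90 bases of mt-Co1 and its 2 copies show how little separates them, with the bases at which they differ in capitals. Counted from the first base of mt-Co1, Gm29216 differs in this stretch by A1066T, and Gm13340 by T1072C and C1134T. A fragment that covers none of these bases is the same in all 3 places. The mt-Co1 stretch is chrM:6390-6479 on the plus strand, that of Gm29216 is chr1:24616099-24616188 and that of Gm13340 is chr2:22588496-22588585, both on the minus strand, all in GRCm38 and read from the GENCODE transcripts.
mt-Co1: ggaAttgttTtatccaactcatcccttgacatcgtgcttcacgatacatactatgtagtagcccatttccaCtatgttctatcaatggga
Gm29216: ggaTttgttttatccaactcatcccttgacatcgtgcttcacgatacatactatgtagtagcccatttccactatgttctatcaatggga
Gm13340: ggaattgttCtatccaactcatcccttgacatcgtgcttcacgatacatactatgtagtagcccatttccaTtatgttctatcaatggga

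With the estimated fragments of the 11 copies added to the genes, mt-Co1 had the highest mean level at 654 FPKM, above mt-Rnr2, which has no copy that passed. mt-Co3 then had 408, mt-Co2 223 and mt-Nd3 80.9 FPKM. mt-Atp6 moved from place 13 of 15 to place 7, at 74.7 FPKM, with 80.0% of its fragments on the copy. For mt-Co3, mt-Co2, mt-Nd3 and mt-Nd4l the copies held 49.97%, 51.5%, 51.1% and 54.0% of the fragments, for mt-Co1 23.2% and for mt-Nd4 21.1%. For mt-Nd5 and mt-Nd2 they held 1.198% and 0.908%. For mt-Nd1, mt-Nd6, mt-Cytb, mt-Atp8 and both rRNA genes no copy passed. The search covered annotated transcripts alone, so copies without an annotation would have been missed. Gm10925 also matches mt-Atp8 without a difference over 43 bases, fewer than the 200 required.

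**Figure D2:**
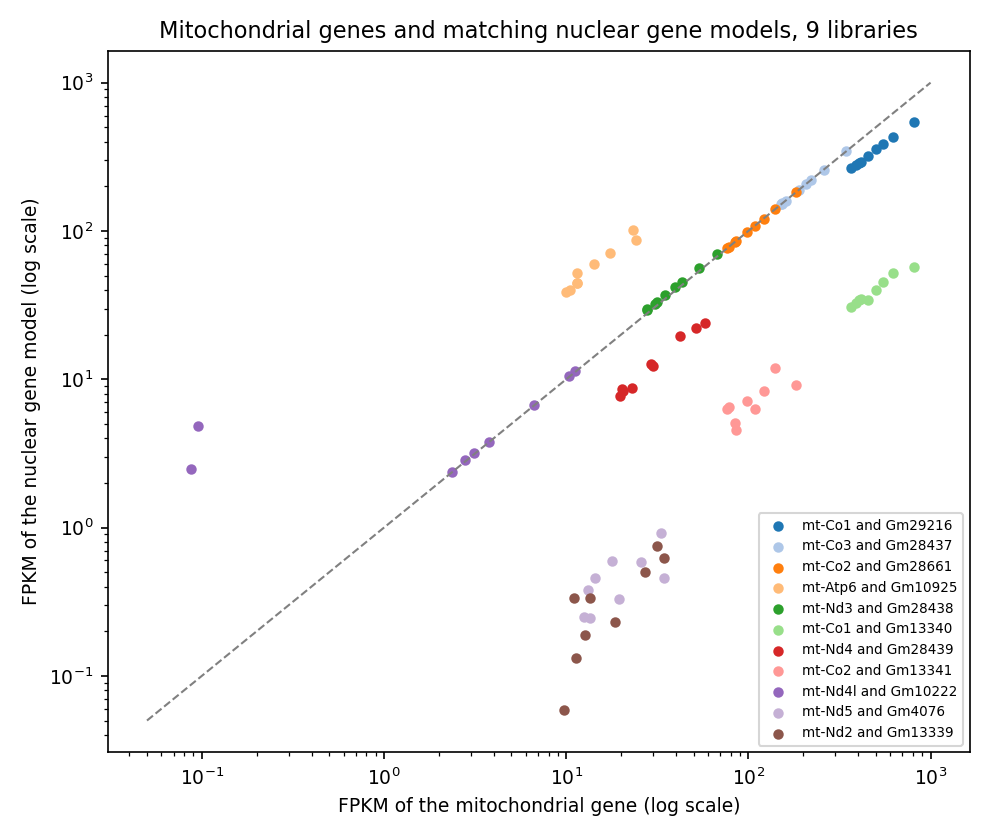
FPKM of each nuclear pseudogene against FPKM of the mitochondrial gene it matches, both on log scales, with 1 point for each of the 9 libraries and a dashed line where both are equal. Pairs with mt-Co3, mt-Co2 and mt-Nd3 lie on or beside the line, Gm10925 lies above it at 3.60 to 4.55 times mt-Atp6, and mt-Nd4l leaves its line in 2 libraries.

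mt-Atp8 and mt-Atp6 are read from 1 RNA, and so are mt-Nd4l and mt-Nd4, with reading frames that overlap. The shared bases, in capitals below with 20 bases on each side, are 43 for the first pair (chrM:7907-7989, plus strand, GRCm38) and 7 for the second (chrM:10147-10193). In both, the capitals open with the start codon of the second gene. They are shown because the levels of the members of a pair were not alike. mt-Atp8 had 39.0 FPKM on average against 14.9 for mt-Atp6 alone and 74.7 for mt-Atp6 with its copy. The value of mt-Atp8 has no copy added, since none passed, so it is not of the same kind as the last. mt-Nd4 had 32.7 FPKM against 4.49 for mt-Nd4l, and 41.5 against 9.77 with the copies.
mt-Atp8 and mt-Atp6: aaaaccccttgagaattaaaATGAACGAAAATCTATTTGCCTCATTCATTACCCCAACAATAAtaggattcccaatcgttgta
mt-Nd4l and mt-Nd4: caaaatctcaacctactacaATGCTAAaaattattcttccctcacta

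The protein genes were next taken by complex. Among the subunits of complex I, the NADH dehydrogenase that takes up electrons from NADH, mt-Nd1 had 50.8, 70.1 and 51.6 FPKM in sleep, 45.0, 52.1 and 87.8 in enforced wake and 124, 65.0 and 105 in enforced wake with Fxr1. mt-Nd2 had 11.0, 13.6 and 9.71 FPKM in sleep, 11.3, 12.6 and 27.0 in enforced wake and 34.3, 18.6 and 31.3 in enforced wake with Fxr1. mt-Nd4 had 19.6, 30.0 and 20.5 FPKM in sleep, 20.3, 23.0 and 42.2 in enforced wake and 57.5, 29.2 and 51.9 in enforced wake with Fxr1, and mt-Nd5 12.6, 19.6 and 13.4 FPKM in sleep, 13.1, 14.4 and 25.8 in enforced wake and 34.3, 17.9 and 33.1 in enforced wake with Fxr1. In these 4 genes enforced wake library 3 and Fxr1 libraries 1 and 3 were the highest, and Fxr1 library 2 lay within the range of the 6 control libraries. Only for mt-Nd2 were the 3 Fxr1 libraries all above the 3 sleep libraries.

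mt-Nd3 had 27.6, 43.1 and 30.6 FPKM in sleep, 27.6, 31.5 and 35.1 in enforced wake and 67.3, 39.8 and 53.3 in enforced wake with Fxr1, and here the 3 Fxr1 libraries were all above the 3 enforced wake libraries, though Fxr1 library 2 was below sleep library 2. mt-Nd4l had 0.0867, 3.75 and 2.78 FPKM in sleep, 2.38, 3.12 and 6.64 in enforced wake and 11.2, 0.0958 and 10.4 in enforced wake with Fxr1. Its lowest values, in sleep library 1 and Fxr1 library 2, rest on an estimated 0.853 and 1.06 fragments, while its identical copy Gm10222 had 2.48 and 4.83 FPKM in the same libraries and nearly the value of mt-Nd4l in the others. mt-Nd6 is the protein gene of the opposite strand (chrM:13552-14070), and had 4.14, 2.86 and 1.94 FPKM in sleep, 2.31, 2.88 and 3.35 in enforced wake and 3.17, 3.13 and 10.2 in enforced wake with Fxr1. Fxr1 library 3 was the highest at 10.2 FPKM, and the other 8 libraries spanned 1.94 to 4.14. Its level rests on an estimated 31.8 to 185 fragments per library. The sources used here do not give whether the counting used strand, so reads from mt-Nd6 and from RNA of the other strand cannot be told apart.

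mt-Cytb, cytochrome b, the mitochondrially encoded subunit of complex III, had 38.7, 60.03 and 38.8 FPKM in sleep, 36.3, 43.5 and 77.8 in enforced wake and 108, 53.7 and 92.8 in enforced wake with Fxr1. Fxr1 libraries 1 and 3 and enforced wake library 3 were the highest, and enforced wake library 1 the lowest. Of complex IV, cytochrome c oxidase, mt-Co1 had 388, 551 and 405 FPKM in sleep, 367, 417 and 503 in enforced wake and 811, 455 and 619 in enforced wake with Fxr1. mt-Co2 had 84.2, 109 and 78.5 FPKM in sleep, 76.6, 85.9 and 122 in enforced wake and 182, 97.9 and 141 in enforced wake with Fxr1. In mt-Co1, mt-Co2 and mt-Co3 sleep library 2 stood above the other sleep libraries, and Fxr1 library 2 was below sleep library 2, so the groups overlapped. Of complex V, ATP synthase, the small subunit mt-Atp8 had 25.1, 38.1 and 23.3 FPKM in sleep, 20.5, 25.7 and 44.4 in enforced wake and 72.8, 35.3 and 66.1 in enforced wake with Fxr1. The proton channel subunit mt-Atp6 had 11.4, 14.2 and 10.5 FPKM in sleep, 9.96, 11.5 and 17.5 in enforced wake and 23.3, 11.4 and 24.3 in enforced wake with Fxr1. Fxr1 libraries 1 and 3 were the highest for both, and Fxr1 library 2 lay inside the range of the controls.

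The 2 rRNA genes gave the small and large subunits of the mitochondrial ribosome. mt-Rnr1 had 90.2, 104 and 76.1 FPKM in sleep, 76.2, 77.2 and 129 in enforced wake and 142, 79.4 and 124 in enforced wake with Fxr1. mt-Rnr2 had 523, 631 and 443 FPKM in sleep, 422, 432 and 731 in enforced wake and 854, 493 and 685 in enforced wake with Fxr1. Their ratio was steady, with mt-Rnr2 at 5.52 to 6.21 times mt-Rnr1 on the FPKM scale. mt-Rnr2 rests on an estimated 19969 to 45801 fragments per library, the most of any member, and mt-Rnr1 on 2180 to 4589.

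The members moved together from library to library. Over the 9 libraries, 13 of the 15 rRNA and protein genes, all but mt-Nd6 and mt-Nd4l, correlated pairwise in log2(FPKM + 1) with a Pearson r of 0.767 to 0.998 and a median of 0.945 over 78 pairs, which is a description of genes that share libraries and precursor RNAs. Pairs with mt-Nd6 had an r of 0.307 to 0.670, with a median of 0.521, and pairs with mt-Nd4l one of 0.307 to 0.785, with a median of 0.715. Both were set apart after these values were seen, and by the median mt-Nd6 was the least like the others. All 13 genes were above their mean in Fxr1 libraries 1 and 3, and none was in sleep libraries 1 and 3 or in enforced wake libraries 1 and 2. In enforced wake library 3, 12 of 13 were above their mean, in sleep library 2, 11, and in Fxr1 library 2, 2. Summed over the 13 protein genes, the level was 825, 1175 and 839 FPKM in sleep, 785, 884 and 1199.5 in enforced wake and 1873, 1016 and 1497 in enforced wake with Fxr1. Fxr1 library 2 was below enforced wake library 3 and sleep library 2, so all 3 groups overlapped.

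**Figure D3:**
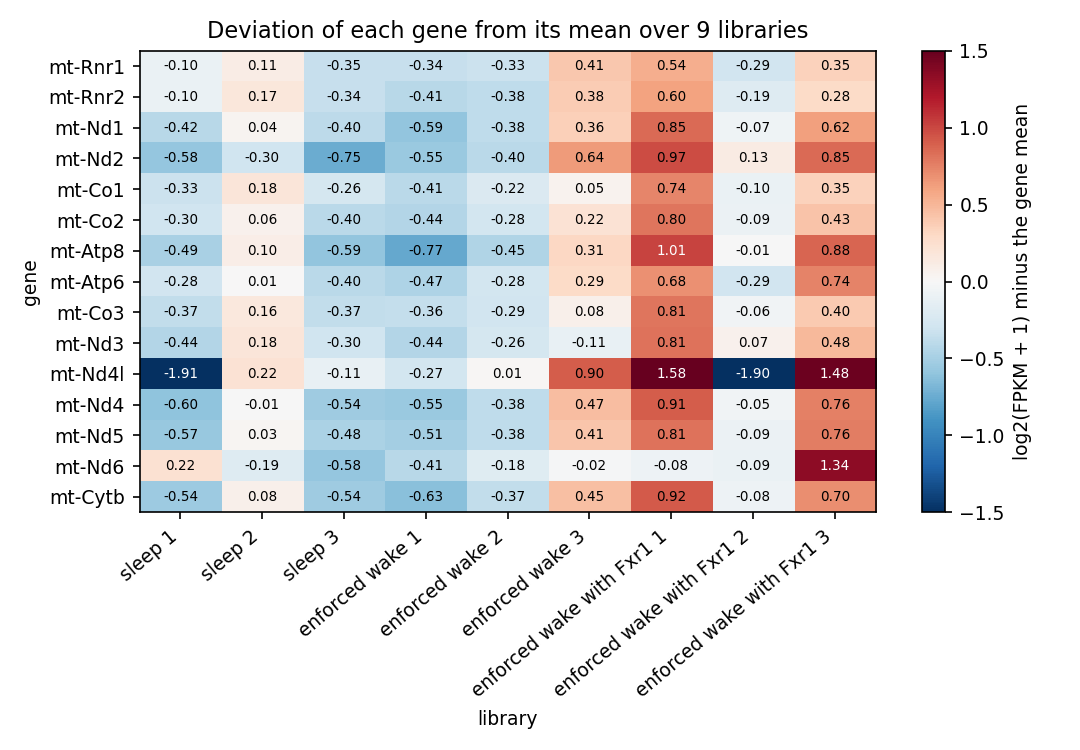
Deviation of log2(FPKM + 1) from the mean of the gene over 9 libraries, for the 2 rRNA genes and 13 protein genes (rows) in each library (columns), with the value printed in each cell and colours limited at -1.5 and 1.5. Most columns have 1 colour from top to bottom, with Fxr1 libraries 1 and 3 high, and mt-Nd6 and mt-Nd4l depart from the others. Values are without the copies, and mt-Nd4l has an identical one.

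Enforced wake was compared with sleep in GFP controls to ask whether mitochondrial RNA on the pull-down differs between the states. The protein genes summed to 946 ± 198 FPKM in sleep and 956 ± 216 in enforced wake, and the rRNA genes to 623 ± 109 and 622 ± 206 (mean ± SD, n = 3 each). None of the 15 genes passed in limma's test with Benjamini-Hochberg adjustment at a threshold of 0.05, and none had an unadjusted p under 0.05, while 28.3% of the 14673 genes tested passed and 42.6% had an unadjusted p under 0.05. None of the 15 had groups apart from each other, against 49.5% of all genes, 23.8% as lower and 25.8% as higher. The median difference of the 15, enforced wake minus sleep, was 0.05 on the log2(FPKM + 1) scale, against 0.004 over all genes. Of the 15 differences, 11 were positive.

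The difference of mt-Co1 was -0.06 (SE 0.17, limma adjusted p = 0.816), with a 95% interval of -0.45 to 0.34. For mt-Co3 it was 0.00, with an interval of -0.42 to 0.42, and for mt-Rnr2 -0.04, with -0.60 to 0.51. mt-Nd2 had 11.4 ± 1.97 FPKM in sleep and 17.0 ± 8.69 in enforced wake, a difference of 0.44 (SE 0.31, limma adjusted p = 0.318), with an interval of -0.30 to 1.17. The largest value, that of mt-Nd4l at 0.82 (SE 0.58, limma adjusted p = 0.324), rests on sleep library 1, where its level was 0.0867 FPKM. Differences that lie inside these intervals are thus not excluded. The median of the 15 was -0.15 without enforced wake library 3, with 2 of 15 positive, and -0.04 without sleep library 3. It was 0.27 with the trend of GC content and length removed from each library.

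Enforced wake with Fxr1 was compared with enforced wake under GFP to ask what Fxr1 overexpression does in that state, and the enforced wake libraries are those of the comparison above. The protein genes summed to 1462 ± 429.9 FPKM with Fxr1 against 956 ± 216, and the rRNA genes to 792 ± 212 against 622 ± 206 (mean ± SD, n = 3 each). None of the 15 genes passed in limma's test with Benjamini-Hochberg adjustment, where 0.412% of the 14563 genes tested passed, 0.0824% as higher and 0.33% as lower. An unadjusted p under 0.05 was reached by 3 of 15, mt-Nd3, mt-Atp8 and mt-Co3, against 38.3% of all genes. That count was 1 without enforced wake library 1 or 2 or Fxr1 library 1 or 3, 10 without enforced wake library 3 and 12 without Fxr1 library 2. All 15 differences were positive, with a median of 0.60 and a range of 0.17 to 0.93, against a median of -0.06 over all genes, of which 6431 of 14563 were positive. Since the genes moved together over libraries, the 15 directions are not 15 separate observations. Summed blood markers were 63.3 to 104 FPKM with Fxr1 and 101 to 188 in enforced wake, and the part of other cells in the differences was not tested.

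mt-Nd3 had 53.5 ± 13.8 FPKM with Fxr1 and 31.4 ± 3.71 in enforced wake, a difference of 0.72 (SE 0.20, limma adjusted p = 0.0880). It was the 1 gene of the 15 with all Fxr1 libraries above all enforced wake libraries, where 52.5% of all genes had groups apart, 20.3% in that direction and 32.3% in the other. mt-Atp8 differed by 0.93 (SE 0.36, limma adjusted p = 0.117), from 30.2 ± 12.6 to 58.0 ± 19.96 FPKM, and mt-Co3 by 0.57 (SE 0.23, limma adjusted p = 0.126). The interval of mt-Nd1 was -0.10 to 1.44 around 0.67, that of mt-Co1 -0.03 to 1.07 around 0.52 and that of mt-Rnr2 -0.31 to 1.05 around 0.37.

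The size of the differences moved with single libraries and with removal of the joint trend of GC content and length. The median of the 15 was 0.92 without Fxr1 library 2, 0.75 without enforced wake library 3 and 0.48 without Fxr1 library 1, the library that stood apart over all genes. With the GC and length trend removed it was 0.31, with 13 of 15 positive, and the values of mt-Rnr1 and mt-Rnr2 were then -0.08 and -0.06. In a fit of all 9 libraries mt-Nd3 passed, with a limma adjusted p of 0.0454. The tRNA genes mt-Tv, mt-Tq and mt-Tp passed too (limma adjusted p = 0.0362, 0.0403 and 0.0400), and 3366 genes passed in all instead of 60. mt-Tv had a mean of 0.588 FPKM in sleep, 0.153 in enforced wake and 0.867 with Fxr1. It met the mean of 0.5 FPKM that the test required only through the Fxr1 libraries, so its p-value lends no support.

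Enforced wake with Fxr1 was also set against sleep, which shares the Fxr1 libraries with the comparison before it and the sleep libraries with the first. None of the 15 genes passed in limma's test over all 9 libraries, against 7.79% of the 14617 genes tested, 4.58% as lower, and 9 of 15 had an unadjusted p under 0.05, against 29.2%. That count was 1 without sleep library 1, sleep library 3 or Fxr1 library 1, 2 without Fxr1 library 3 and 12 without Fxr1 library 2. All 15 differences were positive, with a median of 0.64 and a range of 0.32 to 1.19, and the median over all genes was -0.09. mt-Nd2 had the largest difference, 1.19 (SE 0.33, limma adjusted p = 0.0631), from 11.4 ± 1.97 FPKM in sleep to 28.1 ± 8.32 with Fxr1, and was the 1 gene of the 15 with the groups apart, against 11.5% of all genes in that direction. It passed without enforced wake library 3 (limma adjusted p = 0.0374) and without Fxr1 library 2 (0.0481), and with another library left out its adjusted p was 0.0782 to 0.183, the highest without sleep library 3. mt-Atp8 differed by 0.95 (SE 0.35, limma adjusted p = 0.120), mt-Nd4 by 0.92 (SE 0.33, limma adjusted p = 0.114), mt-Nd3 by 0.64 (SE 0.21, limma adjusted p = 0.0990) and mt-Cytb by 0.85 (SE 0.34, limma adjusted p = 0.147). The rRNA genes had the smallest differences, 0.32 for mt-Rnr1 and 0.33 for mt-Rnr2.

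**Figure D4:**
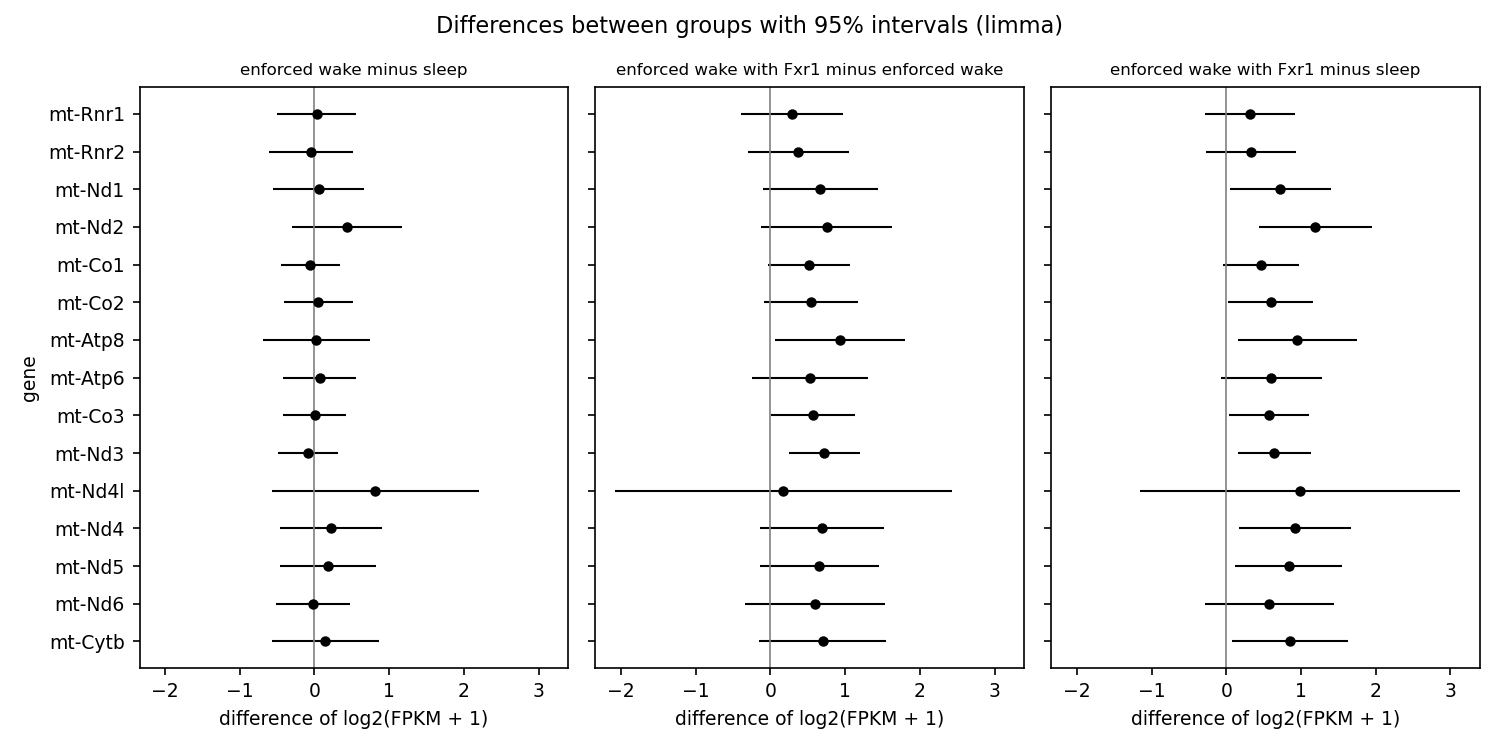
Difference of log2(FPKM + 1) between groups for the 2 rRNA genes and 13 protein genes, with points for the limma estimate and bars for its 95% interval, in 3 panels for the 3 comparisons. Points of enforced wake minus sleep lie on both sides of 0, with a median of 0.05 and mt-Nd4l highest at 0.82, and those of both Fxr1 comparisons lie above 0, with medians of 0.60 and 0.64 and no gene passing after adjustment.

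Ratios between members within a library do not depend on how the library was scaled. On the FPKM scale, with the copies added, the summed rRNA genes stood to the summed protein genes at 0.484, 0.410 and 0.405 in sleep, 0.411, 0.378 and 0.474 in enforced wake and 0.351, 0.369 and 0.357 in enforced wake with Fxr1. The 3 Fxr1 libraries were the lowest of the 9, below enforced wake library 2 at 0.378. The ratio of mt-Rnr2 to mt-Nd1, which have no copy that passed, was 10.3, 9.01 and 8.58 in sleep, 9.36, 8.29 and 8.33 in enforced wake and 6.91, 7.59 and 6.51 in enforced wake with Fxr1, and again the 3 Fxr1 libraries were the lowest. The ratio of mt-Nd2 to mt-Co1 was 0.0284, 0.0246 and 0.0240 in sleep, 0.0307, 0.0303 and 0.0536 in enforced wake and 0.0423, 0.0410 and 0.0506 in enforced wake with Fxr1, so the 3 sleep libraries were the lowest and enforced wake library 3 the highest, here without the copies. These ratios were chosen with their values known and were not tested. The GC content of mt-Rnr2 is 35.4%, that of mt-Nd1 37.6%, that of mt-Nd2 35.7% and that of mt-Co1 39.9%, and the libraries differed in their trend with GC content as given above.

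The 22 tRNA genes, which carry amino acids to the mitochondrial ribosome, were low and rest on few fragments. They are 59 to 75 bases long, and their mean level over 9 libraries was 0.0581 FPKM for mt-Ts2 to 8.36 FPKM for mt-Tl1, which equals an estimated 0.110 to 20.6 fragments per library with a median of 1.69. In 15 of the 22 the mean was under 3 fragments, so counting error alone is large. Whether the fragments come from cut tRNAs or from longer precursors cannot be read from FPKM. Of the 22, 18 had a mean of at least 0.5 FPKM and 7 of at least 2. Together they had 30.0, 43.1 and 32.8 FPKM in sleep, 34.5, 30.4 and 47.9 in enforced wake and 68.8, 38.5 and 63.4 in enforced wake with Fxr1, with Fxr1 libraries 1 and 3 the highest and Fxr1 library 2 below sleep library 2.

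mt-Tl1, the leucine tRNA that lies directly between mt-Rnr2 and mt-Nd1, had 6.13, 7.10 and 6.49 FPKM in sleep, 5.11, 5.24 and 10.6 in enforced wake and 11.2, 8.55 and 14.9 in enforced wake with Fxr1. mt-Tm, the methionine tRNA before mt-Nd2, had 3.14, 4.95 and 5.22 FPKM in sleep, 5.98, 4.41 and 7.22 in enforced wake and 11.5, 5.93 and 9.94 in enforced wake with Fxr1. mt-Tw, the tryptophan tRNA after mt-Nd2, had 1.95, 4.29 and 1.94 FPKM in sleep, 3.30, 2.38 and 6.69 in enforced wake and 9.95, 4.26 and 8.27 in enforced wake with Fxr1. In these 3 genes Fxr1 libraries 1 and 3 were the highest. mt-Ti, the isoleucine tRNA, had 3.80, 4.48 and 2.07 FPKM in sleep, 3.92, 4.99 and 7.63 in enforced wake and 10.2, 2.70 and 6.17 in enforced wake with Fxr1, with Fxr1 library 1 the highest and sleep library 3 the lowest. mt-Tq, the glutamine tRNA of the opposite strand, had 2.89, 4.44 and 3.89 FPKM in sleep, 3.23, 1.73 and 2.15 in enforced wake and 4.11, 3.89 and 4.97 in enforced wake with Fxr1, with enforced wake libraries 2 and 3 the lowest. mt-Ts1, a serine tRNA of the opposite strand, had 0.817, 2.73 and 2.87 FPKM in sleep, 3.25, 2.22 and 5.14 in enforced wake and 2.19, 1.57 and 1.60 in enforced wake with Fxr1, and its highest value lay in enforced wake library 3. mt-Tp, the proline tRNA at the end of the gene map and on the opposite strand, had 5.32, 3.19 and 2.93 FPKM in sleep, 1.86, 2.83 and 1.81 in enforced wake and 6.79, 4.34 and 3.75 in enforced wake with Fxr1, and its 3 enforced wake libraries were below all others. Enforced wake lay apart below sleep in 23.8% of all genes and apart below Fxr1 in 20.3%.

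4 of the tRNA genes are printed whole to show how short the measured features are and where they meet their neighbours. Capitals mark bases shared with the next or the previous gene, 5 in mt-Ti and 1 in mt-Ts2, and mt-Tl1 and mt-Tp share none. mt-Tl1 (chrM:2676-2750, plus strand) had the highest level, mt-Ts2 (chrM:11613-11671, plus) the lowest, mt-Ti (chrM:3706-3774, plus) overlaps mt-Nd1 by 2 bases and mt-Tq by 3, and mt-Tp (chrM:15356-15422, minus) had its 3 enforced wake libraries below the other 6.
mt-Tl1: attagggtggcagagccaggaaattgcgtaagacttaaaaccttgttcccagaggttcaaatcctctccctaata
mt-Ts2: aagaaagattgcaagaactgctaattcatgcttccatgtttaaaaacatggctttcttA
mt-Ti: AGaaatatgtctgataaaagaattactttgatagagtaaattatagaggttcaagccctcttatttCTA
mt-Tp: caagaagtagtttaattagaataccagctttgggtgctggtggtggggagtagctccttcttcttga

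11 other tRNA genes had a mean of at least 0.5 FPKM, and each of them had a mean of less than 3 fragments. mt-Td, the aspartate tRNA, had 0.409, 0.0828 and 0.653 FPKM in sleep, 0.914, 0.529 and 0.869 in enforced wake and 1.64, 0.988 and 1.69 in enforced wake with Fxr1, and mt-Tv, the valine tRNA between the rRNA genes, 0.723, 0.826 and 0.214 FPKM in sleep, 0.200, 0.104 and 0.154 in enforced wake and 0.730, 0.755 and 1.12 in enforced wake with Fxr1. mt-Td was higher in all Fxr1 libraries than in any other library, and mt-Tv was lower in the 3 enforced wake libraries than in the other 6. Among 15 tRNA genes tested for enforced wake against sleep, groups were apart for 1 as higher and 1 as lower. Over all genes the shares were 25.8% and 23.8%. For Fxr1 against enforced wake it was 4 and 1 of 19, beside 20.3% and 32.3% of all genes. For Fxr1 against sleep it was 4 and 0 of 18, beside 11.5% and 21.2%. The 1 as higher in enforced wake was mt-Tk, and the 4 for Fxr1 against enforced wake include mt-Tv. Each met the mean of 0.5 FPKM that the test required only through the group where it was higher. On the opposite strand, the alanine tRNA mt-Ta had 0.594, 1.98 and 0.891 FPKM in sleep, 0.847, 1.04 and 0.635 in enforced wake and 0.547, 0.877 and 0.450 in enforced wake with Fxr1. The asparagine tRNA mt-Tn had 0.594, 1.299 and 0.429 FPKM in sleep, 0.528, 0.812 and 0.184 in enforced wake and 0.867, 0.287 and 0.368 in enforced wake with Fxr1, and the cysteine tRNA mt-Tc 0.745, 1.76 and 0.389 FPKM in sleep, 0.696, 0.603 and 0.694 in enforced wake and 0.904, 0.514 and 0.741 in enforced wake with Fxr1. In mt-Ta, mt-Tn and mt-Tc sleep library 2 was the highest. The tyrosine tRNA mt-Ty had 0.348, 1.14 and 0.645 FPKM in sleep, 0.170, 0.161 and 0.556 in enforced wake and 1.24, 0.851 and 0.310 in enforced wake with Fxr1, and the glutamate tRNA mt-Te 1.03, 1.03 and 1.43 FPKM in sleep, 1.06, 0.649 and 0.741 in enforced wake and 0.476, 0.647 and 2.25 in enforced wake with Fxr1. In both the groups overlapped, with Fxr1 library 1 highest for mt-Ty and Fxr1 library 3 highest for mt-Te.

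On the strand of most genes, the lysine tRNA mt-Tk had 0.447, 0.434 and 0.372 FPKM in sleep, 0.456, 0.539 and 0.861 in enforced wake and 0.607, 0.537 and 1.41 in enforced wake with Fxr1. Each enforced wake library was above each sleep library, as in 25.8% of all genes. Its mean was 0.418 FPKM in sleep and 0.619 in enforced wake. It met the mean of 0.5 FPKM for that comparison only through the enforced wake libraries, so the separation lends no support. The arginine tRNA mt-Tr had 0.151, 0.631 and 0.659 FPKM in sleep, 0.484, 0.448 and 0.249 in enforced wake and 1.35, 0.345 and 0.907 in enforced wake with Fxr1, and the leucine tRNA mt-Tl2 0.439, 1.08 and 0.551 FPKM in sleep, 0.587, 0.321 and 1.12 in enforced wake and 0.726, 0.616 and 1.25 in enforced wake with Fxr1. The threonine tRNA mt-Tt had 0.423, 0.191 and 0.587 FPKM in sleep, 0.589, 0.873 and 0.00330 in enforced wake and 1.53, 0.410 and 0.575 in enforced wake with Fxr1. In mt-Tr, mt-Tl2 and mt-Tt the highest of the 9 values was in an Fxr1 library and the groups overlapped. The remaining mt-Tf, mt-Tg, mt-Th and mt-Ts2 had means of 0.453, 0.192, 0.412 and 0.0581 FPKM, and mt-Tf, mt-Th and mt-Ts2 were listed at 0 in 8 values in all.

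For the tRNA genes, the mean of at least 0.5 FPKM that the test required was met by 15 of 22 in enforced wake against sleep, 19 in Fxr1 against enforced wake and 18 in Fxr1 against sleep. None passed in the first comparison, where 28.3% of all genes did. mt-Tp differed by -0.59 (SE 0.21, limma adjusted p = 0.0780) and mt-Tq by -0.50 (SE 0.19, limma adjusted p = 0.0909), the 2 of 15 with an unadjusted p under 0.05, where 42.6% of all genes had one. Without enforced wake library 1, mt-Tq passed (limma adjusted p = 0.0453). None of 19 passed for Fxr1 against enforced wake either, where 0.412% of all genes did, and 6 had an unadjusted p under 0.05, where 38.3% did. These were mt-Tv at 0.69 (SE 0.11, limma adjusted p = 0.0592), mt-Tp at 0.89 (SE 0.22, limma adjusted p = 0.0878), mt-Tq at 0.68 (SE 0.18, limma adjusted p = 0.0878), mt-Tf at 0.77 (SE 0.28, limma adjusted p = 0.105), mt-Td at 0.46 (SE 0.16, limma adjusted p = 0.0991) and mt-Ts1 at -0.66 (SE 0.24, limma adjusted p = 0.105). mt-Tv and mt-Tf met the mean of 0.5 FPKM here only through the Fxr1 libraries. Their means were 0.153 and 0.188 FPKM in enforced wake and 0.867 and 1.04 with Fxr1, so their p-values lend no support. Neither met it in enforced wake against sleep. Without Fxr1 library 1, mt-Tp passed (limma adjusted p = 0.0355).

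1 member of the 37 passed in any comparison. mt-Td was higher with Fxr1 than in sleep by 0.83 (SE 0.18, limma adjusted p = 0.0330), from 0.382 ± 0.286 to 1.44 ± 0.392 FPKM, where 3.2% of all genes passed as higher. That is a step from an estimated 0.176 fragments in the lowest library to 4.14 in the highest. The call was lost when any 1 of 8 libraries was left out (limma adjusted p = 0.0520 to 0.101) and held without Fxr1 library 2 (0.0317), and it was lost with the GC and length trend removed (0.0691), where the difference was 0.72. mt-Tm differed by 0.88 (SE 0.26, limma adjusted p = 0.0729) and mt-Tw by 1.18 (SE 0.38, limma adjusted p = 0.0939).

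**Figure D5:**
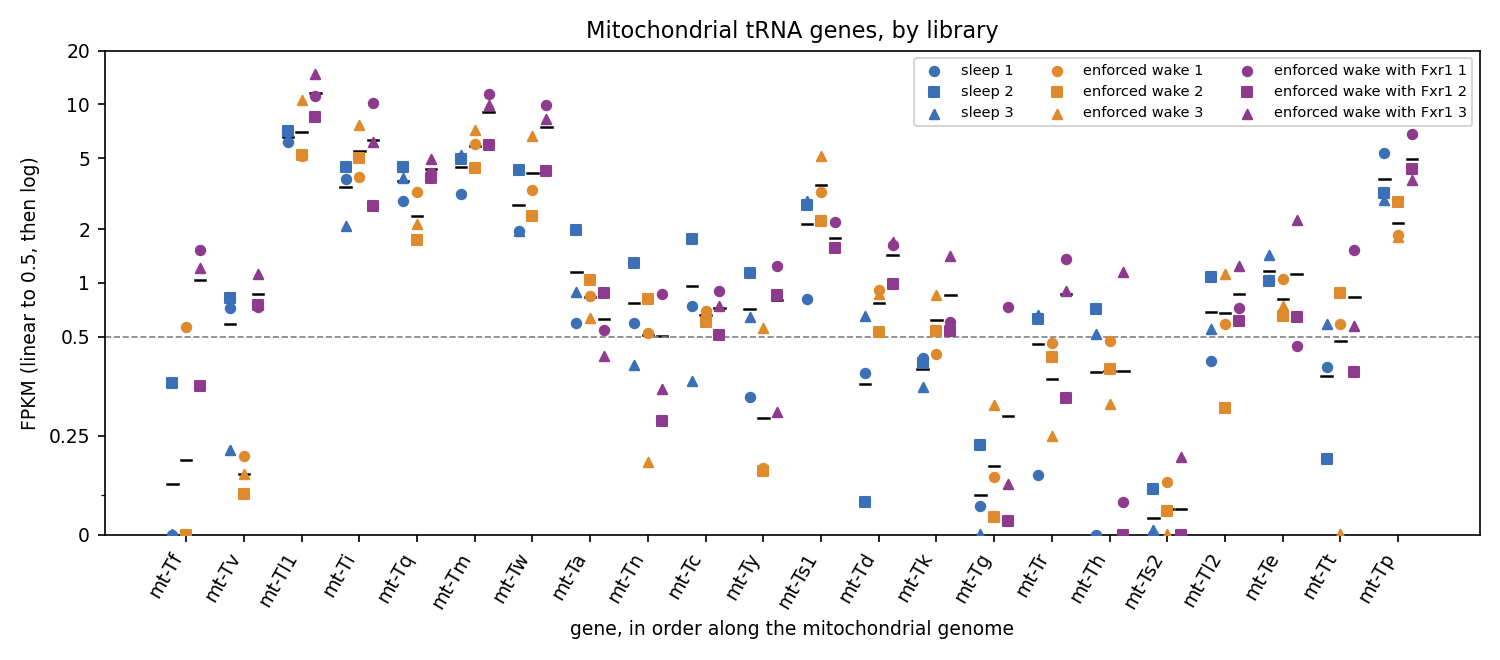
FPKM of the 22 mitochondrial tRNA genes in order along the genome, on an axis that is linear up to 0.5 FPKM (dashed line) and logarithmic above it. Symbols are libraries coloured by group and shaped by replicate number, and black lines are group means. 7 genes have a mean of at least 2 FPKM, and the values of the others spread widely within each group.

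The genes of the nucleus that make, process and use mitochondrial RNA were set beside the members, in 11 lists of 138 genes that were chosen with earlier results of these data known. In enforced wake against sleep 21 of the 138 passed as higher and 18 as lower (limma, Benjamini-Hochberg adjusted), beside 15.7% and 12.7% of all genes, with a median difference of -0.01. In the same comparison the oligodendrocyte marker Mbp rose from 23.3 to 27.1 FPKM in sleep to 43.2 to 51.9 in enforced wake (limma adjusted p = 0.00235). Summed neuron markers were lower, as given above, with Snap25 at -0.22 and Syt1 at -0.25, while 4 of the 7 neuron markers had positive differences. The part of these cell types in the changes was not tested. Of 8 regulators in the nucleus, 4 rose, among them Esrra, an orphan nuclear receptor that controls genes of energy metabolism, by 0.87 (SE 0.12, limma adjusted p = 0.00642), Nrf1 by 0.59 (SE 0.18, limma adjusted p = 0.0473) and Gabpa by 0.35 (SE 0.08, limma adjusted p = 0.0189), both transcription factors of respiratory chain genes. Of 17 genes of mitochondrial DNA transcription and replication, 3 rose and 3 fell. The mitochondrial RNA polymerase Polrmt rose by 0.42 (SE 0.10, limma adjusted p = 0.0263), the transcription factor Tfb2m fell by 0.32 (adjusted p = 0.0291) and the DNA-binding protein Ssbp1 fell by 0.47 (0.0120). With the GC and length trend removed, the value of Polrmt was -0.01.

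Of 30 genes of mitochondrial RNA processing, modification and decay, 5 rose and 4 fell in that comparison. The shares over all genes, for this list and those that follow, were 15.7% as higher and 12.7% as lower. Fastk and Fastkd5, RNA-binding proteins of one family, were up by 0.46 and 0.38, and the tRNA methyltransferase Nsun3 was at -0.45 (limma adjusted p = 0.0164, 0.0171 and 0.0120). Of 17 mitochondrial aminoacyl-tRNA synthetases, Aars2 rose by 0.48 and 3 fell, among them Rars2, at -0.48 (0.0252 and 0.0115). Of 13 translation factors, the elongation factor Tufm rose by 0.52 and the release factor Mtrf1 was at -0.36 (0.0173 and 0.0157). The nuclear subunits of the respiratory chain did not share 1 direction. Uqcr11 of complex III had 43.2, 27.9 and 40.9 FPKM in sleep, 81.1, 88.7 and 91.2 in enforced wake and 31.7, 27.9 and 92.7 in enforced wake with Fxr1, a rise of 1.22 (SE 0.16, limma adjusted p = 0.00512), and Uqcrc2 of the same complex was at -0.27. Ndufs1 of complex I had 99.0, 102 and 101 FPKM in sleep, 80.0, 78.0 and 76.7 in enforced wake and 92.5, 87.9 and 93.9 in enforced wake with Fxr1, a difference of -0.36 (SE 0.05, limma adjusted p = 0.00522), beside rises of 0.59 for Ndufs7 and 0.39 for Ndufs8. In complex IV Cox6c rose by 0.27. Cox6a1 of the same complex was at 0.19 (limma adjusted p = 0.0484) and, with the GC and length trend removed, at -0.34 (0.0288), so its direction turned with that setting. In complex V Atp5d rose by 0.72 and Atp5c1 was at -0.35. The import receptor Tomm20 and the outer membrane channels Vdac3 and Vdac2 were at -0.32, -0.34 and -0.34, the 3 that fell of 10 general mitochondrial proteins. Of the 39 calls, 14 held without enforced wake library 1, 8 without library 2 and 12 without library 3. With all 9 libraries in the fit 6 held, and with the GC and length trend removed 19.

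With Fxr1 against enforced wake none of the 138 passed, where 0.412% of all genes did, and 51 had an unadjusted p under 0.05, where 38.3% of all genes did. The median difference of the nuclear subunits was -0.25 over 10 genes of complex I, -0.34 over 9 of complex III, -0.19 over 10 of complex IV and -0.22 over 10 of complex V, against 0.60 for the 15 members. With the GC and length trend removed, these medians were -0.21, -0.07, 0.09 and -0.16, and that of the members was 0.31. Without Fxr1 library 1 the medians of complexes III, IV and V were -0.10, -0.09 and -0.10, and without Fxr1 library 3 that of complex III was -0.69. Summed by complex, the mitochondrially encoded subunits of complex I had 126, 183 and 131 FPKM in sleep, 122, 139.6 and 228 in enforced wake and 332, 174 and 295 in enforced wake with Fxr1. The 10 nuclear subunits had 857, 804 and 808 FPKM in sleep, 892, 858 and 788 in enforced wake and 609, 728 and 726 in enforced wake with Fxr1, so that the 3 Fxr1 libraries were the lowest of the 9. For complex IV the mitochondrially encoded sum was 741 to 1337 FPKM with Fxr1 and 597 to 832 in enforced wake, and the nuclear sum 1927 to 2330 and 2352 to 2396. Among single genes, Ndufs7 had 34.7, 23.6 and 30.7 FPKM in sleep, 45.8, 41.2 and 46.9 in enforced wake and 8.25, 24.6 and 24.5 in enforced wake with Fxr1, a difference of -1.32 (SE 0.39, limma adjusted p = 0.0892). Esrra differed by -1.46 (SE 0.38, limma adjusted p = 0.0878), Atp5g1 by -1.26 (SE 0.39, limma adjusted p = 0.0909), Cox4i1 by -0.65 (SE 0.21, limma adjusted p = 0.0943) and Uqcr10 by -1.12 (SE 0.34, limma adjusted p = 0.0901). The smallest p was that of Gtpbp3, a GTP-binding protein of tRNA modification, at -0.82 (SE 0.12, limma adjusted p = 0.0585). With the GC and length trend removed, the value of Cox4i1 was 0.10, and without Fxr1 library 1, 5 of the 138 passed as higher and 25 as lower.

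In Fxr1 against sleep 4 of the 138 passed, beside 7.79% of all genes. Fastkd5 rose by 0.56 (SE 0.10, limma adjusted p = 0.0167), Gabpa by 0.52 (SE 0.11, limma adjusted p = 0.0293) and Fastkd2, a further RNA-binding protein of that family, by 0.42 (SE 0.10, limma adjusted p = 0.0486). The valyl-tRNA synthetase Vars2 fell by 0.84 (SE 0.20, limma adjusted p = 0.0397). None of the 4 passed without sleep library 1 or sleep library 3 or in a fit of 6 libraries. No nuclear subunit of the respiratory chain passed. Mterf1a, a transcription termination factor that binds beside mt-Rnr2, had 1.65, 2.17 and 1.91 FPKM in sleep, 1.28, 1.56 and 1.42 in enforced wake and 2.23, 1.96 and 2.26 in enforced wake with Fxr1 and differed between Fxr1 and enforced wake by 0.38 (SE 0.09, limma adjusted p = 0.0878).

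The authors' deposited table of comparisons lists their own fold changes. For sleep over enforced wake these were 0.920 to 1.42 for the 13 protein genes, with a median of 1.23 and 12 of 13 above 1, whereas on the log2(FPKM + 1) scale 10 of 13 had a higher mean in enforced wake, with mt-Co3 at 0.00. The authors' deposited table lists no member of the 37 with a p-value under 0.05, against 9.73% of transcripts with a p-value. For Fxr1 over enforced wake the authors' deposited table lists 1.56 to 3.10 for the 13, with a median of 2.08, and 6 of 37 members with a p-value under 0.05, against 9.1% of transcripts. In the authors' deposited table no member reached a q-value under 0.05 in either comparison, as 0.0175% and 0.0303% of transcripts did. The lowest q-value there was 0.238, that of mt-Tv for Fxr1 over enforced wake.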

How the data were processed

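Ribosome-associated RNA of 9 libraries was sequenced, and the authors deposited 2 tables of 115220 transcripts with FPKM per library, made with HISAT2 2.1.0, SAMtools 1.9 and StringTie 1.3.4d on GRCm38, per the submitters' processing notes. Each deposited table also lists the authors' fold change (a ratio), p-value and q-value per transcript; the sources used here do not give the tool behind them. Count models were not applied to FPKM. Values were summed per gene symbol, taken as log2(FPKM + 1) and tested with limma 3.58.1 in R 4.3.3 (eBayes with intensity trend, 2-sided, Benjamini-Hochberg over all genes with a mean of at least 0.5 FPKM, threshold 0.05). Enforced wake against sleep and Fxr1 against enforced wake used their own 6 libraries, and Fxr1 against sleep used all 9. The FPKM scale understates changes of low genes, and each value is relative to its library. An exact permutation test of 3 against 3 libraries cannot go below a p of 0.1. Depth came from the smallest steps of FPKM times length, and fragments per gene are estimates from it that cover counting error only. Copies were sought with BLAST+ 2.17.0 among GENCODE M21 transcripts of GRCm38. The fit was tested on simulated data. Members and gene lists were chosen with earlier results of these data known. Named were all members (values per library for all but 4 tRNA genes with means under 0.5 FPKM), the 5 copies with the highest mean FPKM plus Gm13340 and Gm10222, added after their values were seen, and genes from among the up to 3 of each list with the smallest p in each comparison. Alternatives were another pseudocount, no filter, 2 scalings, other libraries in the fit, removal of a GC and length trend (splines with 5 degrees of freedom), no intensity trend, a replicate block, each library left out and, added after the data were seen, the fragments of the copies.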

Additional observations from a re-analysis of the deposited data

How the results depend on the processing

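Of the 15 protein and rRNA genes, all 15 differences stayed positive for Fxr1 against sleep under every alternative run. For Fxr1 against enforced wake the exceptions were mt-Nd4l at -0.40 with a pseudocount of 0.1 and, with the GC and length trend removed, mt-Rnr1 at -0.0775 and mt-Rnr2 at -0.0587, and mt-Nd4l without 1 library (-0.42 to 1.32). Cox4i1 was then at 0.10. For enforced wake against sleep, mt-Co3 was at -0.0033 when scaled to nuclear protein-coding genes; with the GC and length trend removed mt-Rnr2 was at 0.24, mt-Tl1 at -0.22, mt-Co1 at 0.21, mt-Atp8 at -0.13, mt-Nd6 at 0.11, Cox6a1 at -0.34, a call in the other direction (limma adjusted p = 0.0288), and Polrmt at -0.0070. The cause was not tested. Members that passed numbered 1 (mt-Tq) for enforced wake against sleep with that trend removed, 4 for Fxr1 against enforced wake with all 9 libraries, and for Fxr1 against sleep 0 with a pseudocount of 0.1, no filter or 6 libraries and 2 (mt-Tm and mt-Nd3) with the trend removed, instead of 0, 0 and 1. The 4 include mt-Tv, which met the filter only through the Fxr1 libraries. All genes passing were 1398 with 9 libraries instead of 4156 for enforced wake against sleep. They were 29 with a pseudocount of 0.1, 4 without a filter, 36 scaled to nuclear protein-coding genes, 3366 with 9 libraries and 1 with the replicate block instead of 60 for Fxr1 against enforced wake. For Fxr1 against sleep they were 183 with 6 libraries, 1874 with the trend removed and 372 with the replicate block instead of 1138. Deviations of same-numbered samples from their group mean had correlations of -0.25 to 0.17. With 3 libraries per group such deviations offset each other, so these values cannot show whether the numbers pair samples. The labels do not say it either. The replicate block changed no member call, left 5 instead of 9 of the 15 genes with an unadjusted p under 0.05 for Fxr1 against sleep, and left 25 of 39 and 0 of 4 calls of the nuclear lists for enforced wake and for Fxr1, each against sleep. With 1 library left out, all genes passing were 1822 to 3631, 2 to 3316 and 248 to 1440 in the 3 comparisons in the order above, and members passing 0 to 1, 0 to 1 and 0 to 3. The 3316 were without Fxr1 library 1, and the lowest counts, 2, without enforced wake library 2 or 3. Differences that changed sign with 1 library left out ranged as follows for enforced wake against sleep: mt-Atp6 -0.15 to 0.23, mt-Atp8 -0.28 to 0.26, mt-Co1 -0.18 to 0.10, mt-Co2 -0.14 to 0.19, mt-Co3 -0.13 to 0.18, mt-Cytb -0.17 to 0.37, mt-Nd1 -0.23 to 0.25, mt-Nd3 -0.21 to 0.10, mt-Nd4 -0.0849 to 0.42, mt-Nd5 -0.11 to 0.36, mt-Nd6 -0.22 to 0.18, mt-Rnr1 -0.22 to 0.16, mt-Rnr2 -0.30 to 0.093, mt-Ta -0.37 to 0.0775, mt-Tc -0.40 to 0.10, mt-Tl1 -0.29 to 0.17 and mt-Tl2 -0.20 to 0.14. For Fxr1 against enforced wake they were mt-Tc -0.0353 to 0.13, mt-Te -0.21 to 0.36, mt-Ti -0.30 to 0.50, mt-Tk -0.0347 to 0.29 and mt-Tn -0.16 to 0.11. For Fxr1 against sleep they were mt-Tc -0.36 to 0.14, mt-Te -0.47 to 0.10, mt-Ts1 -0.46 to 0.0896 and mt-Ty -0.11 to 0.28. Adding the fragments of the copies, chosen after seeing the data, changed no member call and gave medians of 0.05, 0.65 and 0.69. Few fragments limit mt-Nd4l, mt-Nd6 and the tRNA genes, and the spread between 3 libraries limits the others. mt-Nd4l is limited as well by its identical copy Gm10222, since how fragments were shared between them is not known.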
